A study of Mus musculus with 16 samples.

Results

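Transcript levels were examined for 10 genes of cytokines and related mediators that cytotoxic T cells can secrete: Ifng, Il2, Il3, Csf1, Csf2, Lif, Osm, Spp1, Areg and Tgfb1, of the 55401 genes in each table. They were taken by name, and all 10 had an identifier. Poly(A) RNA was measured in mouse CD8+ T cells of spleen, which carry the OT-I receptor for an ovalbumin peptide according to the methods of the study, after activation with that peptide. TPdh-/- denotes a CD4-cre deletion of floxed Pdha1, the gene for a subunit of the pyruvate dehydrogenase complex, which feeds pyruvate into the mitochondrial acetyl-CoA pool. The 4 groups of 4 libraries were TPdh-/- TM (libraries 13 to 16) and WT TM (9 to 12), which were cultured with IL-15 towards memory cells, and TPdh-/- TE (5 to 8) and WT TE (1 to 4), which were cultured with IL-2 towards effector cells. CD4-cre is active from thymic development on, so the deletion precedes activation and is not restricted to CD8+ T cells, and the mice of the study were of both sexes and 8 to 12 weeks old. Whether separate mice gave the libraries within a group is not in the labels, and each p measures the spread between libraries.

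These mediators act on quite different partners. Interferon gamma (Ifng) is the signature effector cytokine of cytotoxic T cells. IL-2 (Il2) is the growth factor that activated T cells make for themselves, and IL-3 (Il3), M-CSF (Csf1) and GM-CSF (Csf2) act on myeloid cells. LIF (Lif) and oncostatin M (Osm) share the signalling chain gp130 and activate STAT3. Osteopontin (Spp1) binds integrins and CD44, amphiregulin (Areg) binds the EGF receptor, and TGF beta 1 (Tgfb1) is secreted in a latent form that must be activated. Only their mRNA was measured here, and in a bulk library fewer producing cells and less RNA per cell cannot be told apart.

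Library totals ran between 53007257 and 73507566 counts. WT TM library 12 and TPdh-/- TE library 5 stood apart from the rest of their groups (chi-square per degree of freedom over genes of up to 70.3 for library 12 and up to 61.3 for library 5), and their effect is given for the results that leaving them out moved most. CPM, the counts scaled to library size with TMM factors, were 153 ± 8.51 for Pdha1 in TPdh-/- TM and 178 ± 11.6 in WT TM, and 153 ± 4.21 in TPdh-/- TE and 161 ± 0.787 in WT TE (SD, n = 4 each). This count is over the whole gene, of which only a floxed part is removed, so it does not check the deletion. TPM are transcript levels scaled for gene length and library size. Of the 3 CD4 T cell markers, Cd4 reached at most 0.5 TPM in any library. Cd40lg reached 1.66 TPM and Zbtb7b 18.4 TPM, both in TPdh-/- TE. The test called 2 of the 3 higher in TPdh-/- TM and 1 in TPdh-/- TE, and none lower. The 6 CD8 T cell markers summed to 2539 to 2731 TPM in TPdh-/- TM and 3136 to 3265 TPM in WT TM. In TE they summed to 3810 to 5165 TPM in TPdh-/- and 4341 to 4542 TPM in WT. Gzmb, an effector gene, made up most of the TE sums. It averaged 2677 of 4423 TPM in TPdh-/- TE and 2287 of 4489 TPM in WT TE. In TM Gzmb averaged 334 TPM in TPdh-/- and 128 TPM in WT. By the test, 4 of the 6 were lower and 1 higher in TPdh-/- TM, and 4 were lower and none higher in TPdh-/- TE. In TM Cd8a averaged 500 TPM in TPdh-/- and 798 TPM in WT, and Trac 354 TPM in TPdh-/- and 517 TPM in WT. The part of this shift in the cytokine levels was not tested.

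The stretch before the start site is shown for Ifng, Lif and Spp1, which differed in genotype pattern (Ifng passed the test in TM alone, Lif had its larger difference in TE and Spp1 in TM). The letters are of RefSeq on GRCm38.p6, all on the plus strand and read 5′ to 3′. Motifs were searched on both strands, apart from the TATA box on the gene's strand only. Capitals mark a STAT motif (TTCNNNGAA), an AP-1 motif (TGANTCA) or a TATA box (TATAAA).
Ifng, chr10:118440796-118441045: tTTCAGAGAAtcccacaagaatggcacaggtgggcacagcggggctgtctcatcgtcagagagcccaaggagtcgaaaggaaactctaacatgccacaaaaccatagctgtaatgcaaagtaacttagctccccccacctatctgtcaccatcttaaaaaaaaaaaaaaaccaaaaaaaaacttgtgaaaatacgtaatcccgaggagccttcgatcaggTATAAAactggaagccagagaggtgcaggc
Lif, chr11:4257318-4257556: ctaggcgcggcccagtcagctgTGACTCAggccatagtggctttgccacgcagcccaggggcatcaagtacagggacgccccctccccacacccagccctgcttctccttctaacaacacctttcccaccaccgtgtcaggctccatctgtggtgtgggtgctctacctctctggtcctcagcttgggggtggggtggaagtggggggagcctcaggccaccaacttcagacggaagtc
Spp1, chr5:104434861-104435110: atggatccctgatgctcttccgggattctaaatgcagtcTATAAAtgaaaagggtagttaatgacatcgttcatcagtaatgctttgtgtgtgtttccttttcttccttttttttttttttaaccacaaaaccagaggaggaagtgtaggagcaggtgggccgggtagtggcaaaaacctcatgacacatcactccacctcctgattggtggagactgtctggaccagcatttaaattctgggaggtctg
Ifng held a TATA box at position -30 from the start site and a STAT motif at -249. Lif held an AP-1 motif at -228 and no TATA box, and Spp1 a TATA box at -211. Over 32817 promoter windows of 300 bases in RefSeq the TATA box was found in 8.32%, the STAT motif in 8.29% and the AP-1 motif in 7.81%, so each match is common and describes only the letters.

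Of the 10 genes, 7 had enough counts to be tested, and Il2, Il3 and Areg did not. In TM, 5 of the 7 were higher in TPdh-/- than in WT and none was lower, where 11.0% of the 15277 genes tested were higher and 7.27% lower. In TE, also 5 of the 7 were higher and none lower, against 17.3% of genes higher and 14.3% lower. Csf1, Csf2, Lif and Spp1 were higher in both cultures, Ifng passed the test in TM and Osm in TE, and Tgfb1 passed it in neither. A gene was called at an adjusted p below 0.05 (edgeR quasi-likelihood test, Benjamini-Hochberg over all genes tested).

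**Figure D1:**
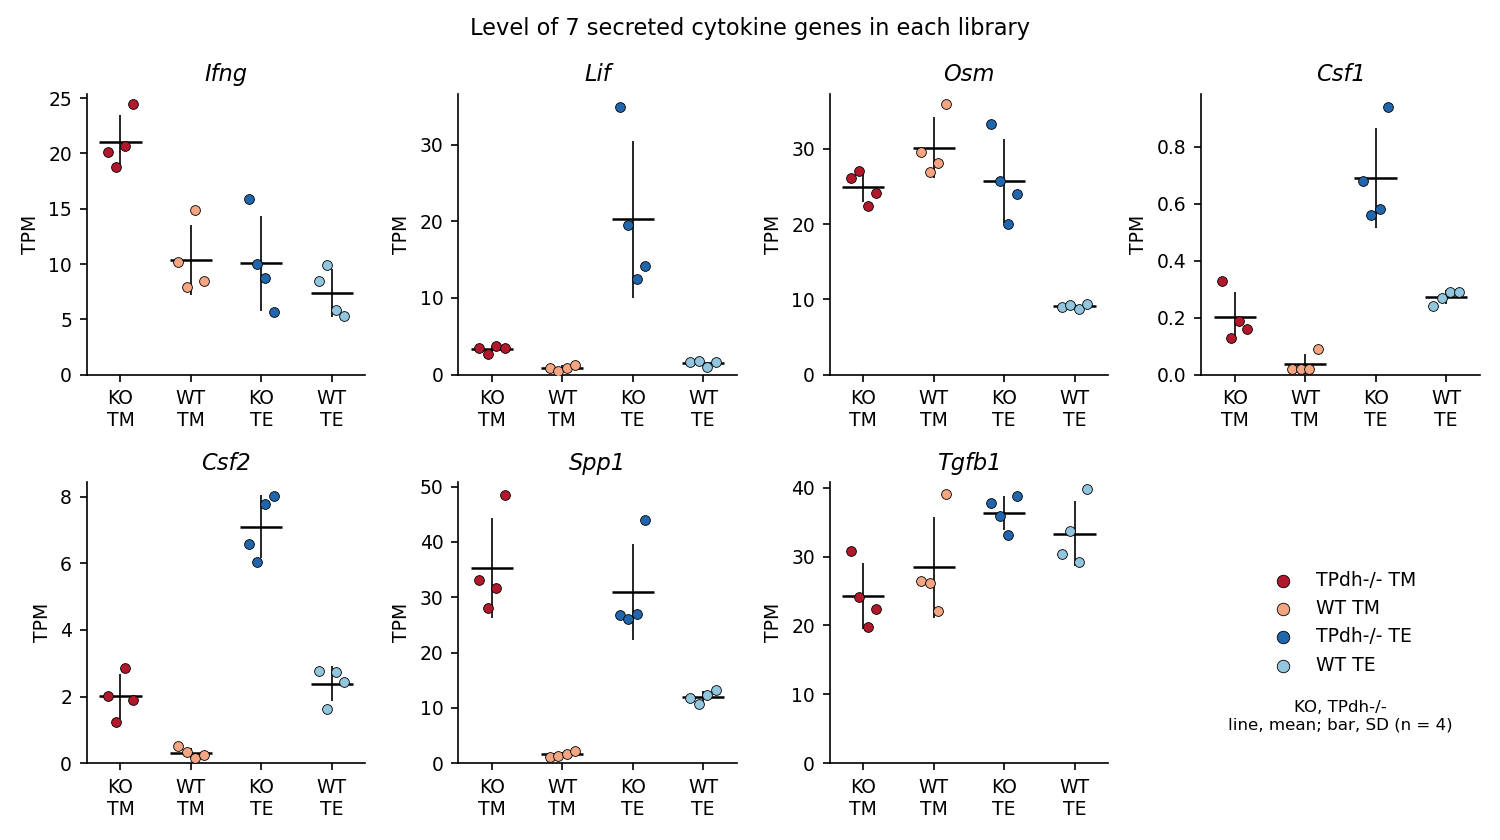
TPM (y axis, from 0) of the 7 testable cytokine genes in each of the 16 libraries, with the 4 groups along the x axis; points are libraries, horizontal lines the mean and vertical bars the SD (n = 4), and KO stands for TPdh-/-. Spp1 sits between 28.1 and 48.5 TPM in TPdh-/- TM, against 1.10 to 2.27 TPM in WT TM, and Lif between 12.4 and 34.9 TPM in TPdh-/- TE, against 0.99 to 1.77 TPM in WT TE.

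The make-up of the cytokine transcripts differed by group. In TPdh-/- TM, Spp1 led at 35.3 TPM and its libraries did not overlap those of the next gene, Osm, whereas Osm (24.9 TPM), Tgfb1 (24.3 TPM) and Ifng (21.01 TPM) overlapped in that order. The libraries of Spp1 did overlap those of Tgfb1, which reached 30.9 TPM. In WT TM, Osm (30.2 TPM) and Tgfb1 (28.4 TPM) overlapped and stood above Ifng (10.4 TPM) and Spp1 (1.58 TPM). Spp1 thus made up 31.8% of the summed TPM of the 10 genes in TPdh-/- TM and 2.21% in WT TM. In TPdh-/- TE the order was Tgfb1, Spp1, Osm, Lif, Ifng and Csf2, and each of these overlapped the next. In WT TE, Tgfb1 (33.3 TPM) stood above Spp1 (12.02 TPM), which stood above Osm (9.09 TPM), and Osm overlapped Ifng (7.39 TPM). Lif made up 15.4% of the sum in TPdh-/- TE and 2.29% in WT TE, and Csf1 was the lowest of the 7 tested genes in all 4 groups.

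**Figure D2:**
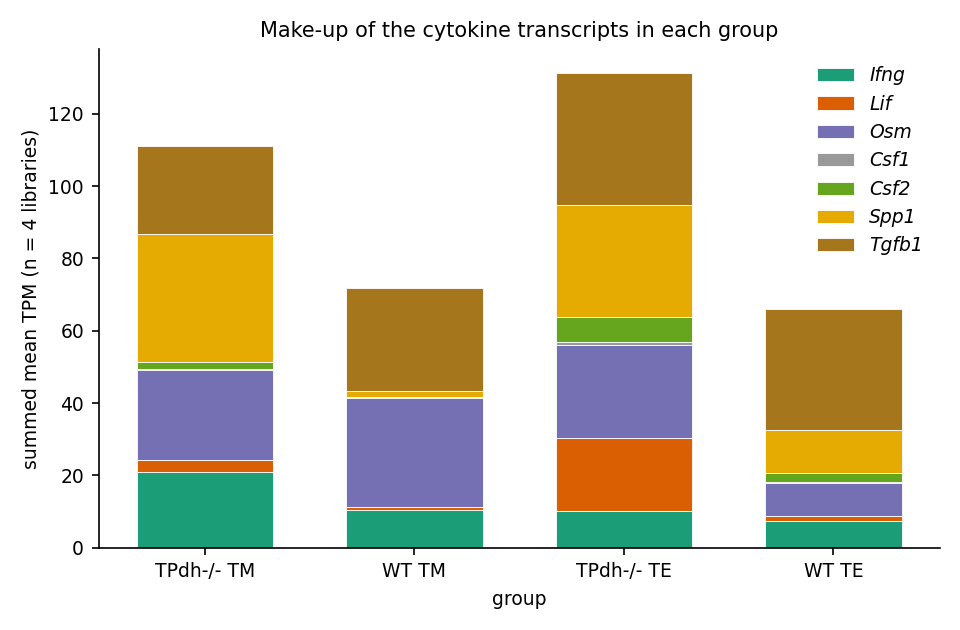
Mean TPM (y axis, n = 4 libraries) of the 7 testable cytokine genes stacked for each of the 4 groups (x axis). Spp1 takes 31.8% of the sum in TPdh-/- TM and 2.21% in WT TM, and Lif 15.4% in TPdh-/- TE and 2.29% in WT TE.

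**Figure D3:**
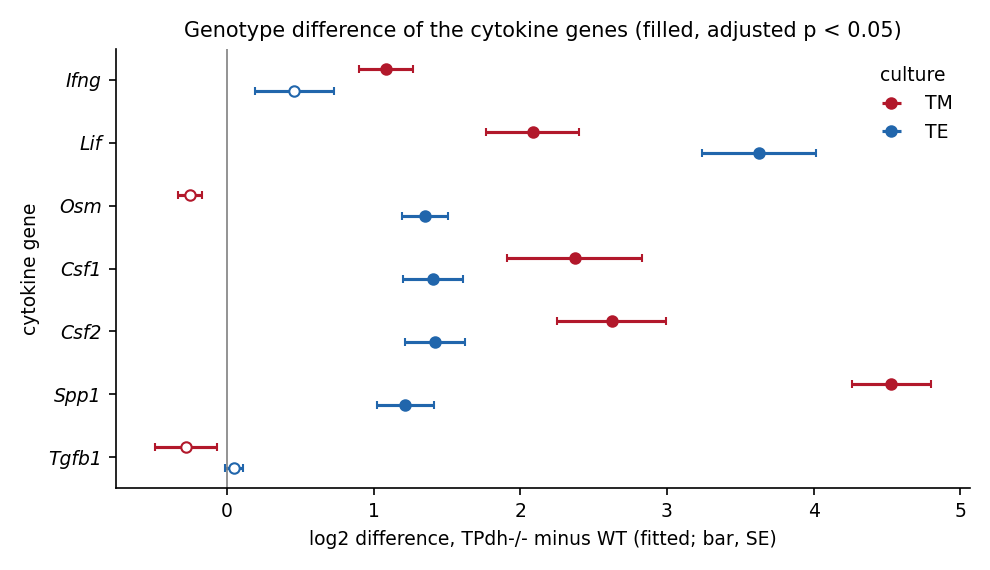
Fitted log2 difference TPdh-/- minus WT (x axis) of each cytokine gene (y axis) in TM and TE; bars are SE and filled points passed an adjusted p of 0.05. Spp1 has the largest difference in TM (4.53) and Lif the largest in TE (3.63).

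Ifng (ENSMUSG00000055170, chromosome 10, 118441046 to 118445892, plus strand, GRCm38) had 20.1, 18.8, 20.7 and 24.5 TPM in TPdh-/- TM, against 10.2, 7.95, 14.9 and 8.46 TPM in WT TM. All TPdh-/- TM libraries lay above all WT TM libraries, with a log2 difference of 1.08 (SE 0.18, edgeR adjusted p = 0.000888). In TE it had 15.9, 9.99, 8.75 and 5.68 TPM in TPdh-/- and 8.50, 9.93, 5.84 and 5.28 TPM in WT. Those ranges overlapped, and the log2 difference of 0.46 (SE 0.27, edgeR adjusted p = 0.0948) did not pass the test. Without TPdh-/- TE library 8, the lowest of its group, the log2 difference in TE was 0.63 (edgeR adjusted p = 0.0123), and without library 5, the highest, it was 0.24 (edgeR adjusted p = 0.364). The genotype difference was not shown to depend on the culture (log2 0.63, edgeR adjusted p = 0.149), and passed without TPdh-/- TE library 5 (log2 0.85, edgeR adjusted p = 0.0309). Between cultures, Ifng was higher in TM than in TE in TPdh-/- cells (log2 0.97, SE 0.28, edgeR adjusted p = 0.000308), where 33.0% of genes were higher and 34.7% lower. In WT cells the difference between cultures of 0.35 did not pass (edgeR adjusted p = 0.137). The exons of Ifng overlap those of Gm49751 on the same strand, which had 44 to 110 counts per library, so reads may be divided between the pair. The summed NK cell markers, which include genes that activated CD8+ T cells also express, moved with Ifng in TM (233 to 371 TPM in TPdh-/- TM and 56.5 to 76.2 TPM in WT TM), and their part was not tested.

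Among the receptor genes, Ifngr1, the ligand-binding chain, was at 359 TPM in TPdh-/- TM and 325 TPM in WT TM (log2 0.18, edgeR adjusted p = 0.019). Ifngr2, the signalling chain, was far lower, at 4.53 TPM in TPdh-/- TM and 4.03 TPM in WT TM (log2 0.44, edgeR adjusted p = 0.0011). It was also higher in TPdh-/- TE (4.38 TPM) than in WT TE (1.92 TPM), a log2 difference of 0.97 (edgeR adjusted p = 2.5e-07). Of 20 genes induced by interferon gamma, 18 were higher in TPdh-/- TM and none lower, against 11.0% and 7.27% of all genes. In TPdh-/- TE 12 were higher and none lower, against 17.3% and 14.3% of all genes. The median log2 difference of the list was 0.99 in TM and 0.41 in TE, against -0.0048 and -0.00025 over all genes tested. In TM the guanylate-binding proteins Gbp2 (log2 1.28) and Gbp6 (1.35), the immunity-related GTPases Iigp1 (1.63) and Irgm2 (1.07), and the transcription factor Irf1 (0.89) all passed. So did Cxcl9, a chemokine of the interferon gamma response (log2 5.17, edgeR adjusted p = 2.3e-06), which had 197 counts over the TPdh-/- TM libraries and 5 over the WT TM libraries. Socs1, which inhibits the receptor's kinases, passed in TE (log2 0.78, edgeR adjusted p = 1.9e-05) and was at 0.03 in TM. Its genotype difference depended on the culture (log2 -0.75, edgeR adjusted p = 0.0019). Tap1 passed in neither culture. Many of these genes also respond to type I interferon.

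**Figure D4:**
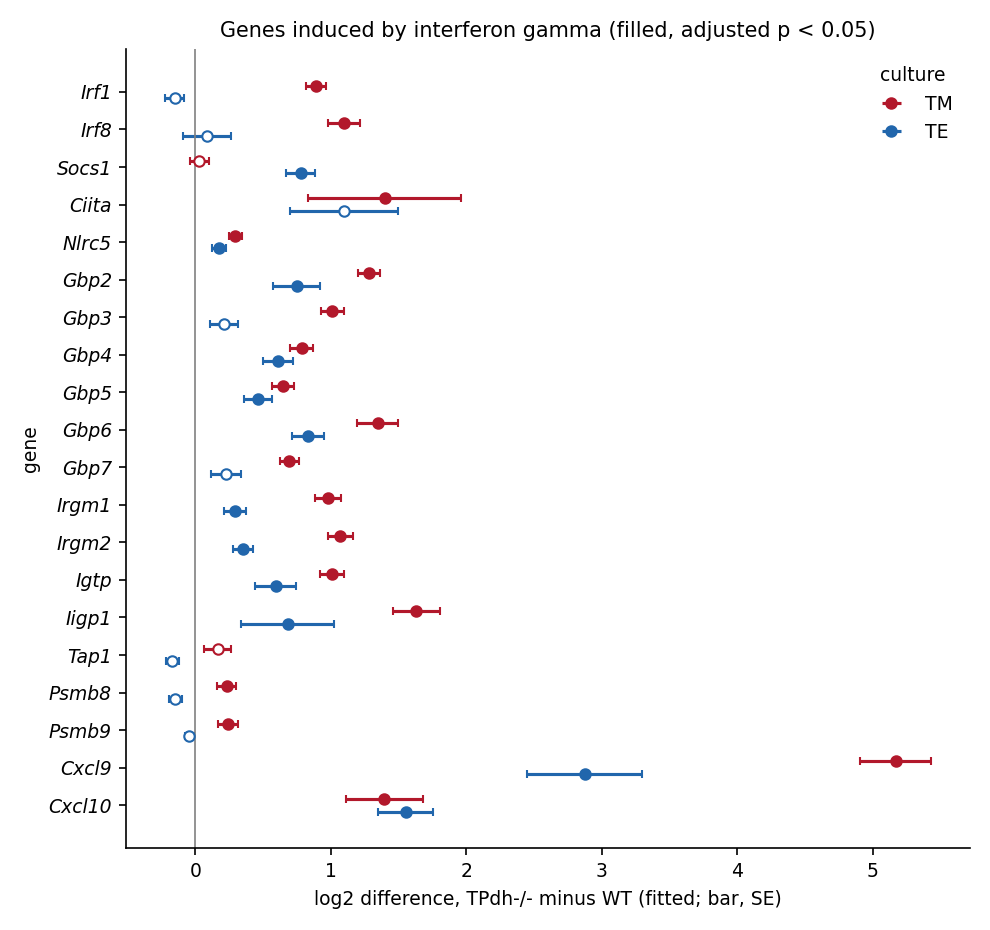
Fitted log2 difference TPdh-/- minus WT (x axis) of 20 genes induced by interferon gamma (y axis) in TM and TE; bars are SE and filled points passed an adjusted p of 0.05. Of the 20 genes 18 are filled to the right of 0 in TM and 12 in TE.

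Ifngas1, a long non-coding RNA gene 56143 bases from Ifng, had a mean of 10.1 TPM in TPdh-/- TM and 5.95 TPM in WT TM (log2 0.78, edgeR adjusted p = 0.0024). In TE the order turned, with 4.01 TPM in TPdh-/- and 6.52 TPM in WT (log2 -0.84, edgeR adjusted p = 0.00087), and the genotype difference depended on the culture (log2 1.62, edgeR adjusted p = 0.00014). The genes whose pattern over the genotype contrasts and the culture contrast in WT was most like that of Ifng were Fgfr1, Zfp442 and Casp1 (distances of 0.15, 0.30 and 0.32 log2 units among 10713 genes).

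Lif and Osm lie 16531 bases apart on chromosome 11, and both had higher levels in TPdh-/- TE than in WT TE. Lif (ENSMUSG00000034394, 4257557 to 4272514, plus strand) had 34.9, 19.5, 12.4 and 14.2 TPM in TPdh-/- TE, against 1.61, 1.77, 0.99 and 1.69 TPM in WT TE. The groups did not overlap, the fold was 12.3 (log2 3.63, SE 0.39, edgeR adjusted p = 2.44e-07), and library 5 was the highest. In TM, Lif had 3.49, 2.69, 3.70 and 3.52 TPM in TPdh-/- and 0.86, 0.44, 0.83 and 1.3 TPM in WT, again without overlap (log2 2.08, SE 0.32, edgeR adjusted p = 0.000215). The genotype difference was smaller in TM than in TE by 1.54 on the log2 scale (edgeR adjusted p = 0.0244). That call was lost without WT TM library 9 (adjusted p = 0.0508), WT TM library 12 (0.0766) or WT TE library 3 (0.0536), and also without both library 5 and library 12 (log2 -0.88, edgeR adjusted p = 0.0719). Lif was lower in TM than in TE in both genotypes, by 2.59 (TPdh-/-, edgeR adjusted p = 6.0e-07) and 1.05 (WT, edgeR adjusted p = 0.0105) on the log2 scale.

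Osm (ENSMUSG00000058755, 4236420 to 4241026, plus strand) followed another pattern. It had 26.1, 27.0, 22.5 and 24.1 TPM in TPdh-/- TM and 29.6, 27.0, 28.2 and 36.0 TPM in WT TM, and these overlapped (log2 -0.25, edgeR adjusted p = 0.134). In TE it had 33.3, 25.8, 20.0 and 24.0 TPM in TPdh-/- and 9.01, 9.23, 8.74 and 9.37 TPM in WT. The TPdh-/- TE libraries thus all lay above the WT TE libraries (log2 1.35, SE 0.16, edgeR adjusted p = 2.42e-07), and all but library 7 lay within the range of the TM libraries. The genotype difference depended on the culture (log2 -1.60, SE 0.18, edgeR adjusted p = 4.56e-06). In the culture comparison it was higher in TM than in TE in WT cells (log2 1.55, edgeR adjusted p = 3.62e-09), and in TPdh-/- cells the difference was -0.05 (edgeR adjusted p = 0.695). Without TPdh-/- TE library 5 the TM genotype difference of -0.25 passed (edgeR adjusted p = 0.0257).

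The ratio of Lif to Osm transcripts, on the TPM scale, was 0.136 ± 0.0274 in TPdh-/- TM and 0.0278 ± 0.00827 in WT TM, and 0.755 ± 0.208 in TPdh-/- TE and 0.166 ± 0.0356 in WT TE (SD, n = 4 each). In no comparison of genotypes did the ranges of this ratio overlap. Castor1, which encodes an arginine sensor of the mTORC1 pathway and lies 14011 bases from Osm on its other side, showed a pattern near that of Osm between genotypes. It was at 10.6 TPM in TPdh-/- TE and 3.84 TPM in WT TE (log2 1.32, edgeR adjusted p = 4.1e-08), and at 5.42 TPM in TPdh-/- TM and 4.86 TPM in WT TM (log2 0.19, edgeR adjusted p = 0.19). Tbc1d10a and Sf3a1, further on that side, were 20915 and 53879 bases from Osm and did not pass in TE. The genes most like Osm were Stx1a, Pacsin1 and Susd2 (distances of 0.13, 0.26 and 0.37 log2 units), and those most like Lif were Oaf, Trat1 and Tgm2 (0.69, 0.73 and 0.74 log2 units).

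The receptor chains of Lif and Osm were little transcribed in these cells. Lifr averaged at most 0.02 TPM and Osmr at most 0.0075 TPM in any group, and neither could be tested. Il6st, which encodes the gp130 chain, was at 22.1 TPM in TPdh-/- TM and 31.4 TPM in WT TM (log2 -0.43, edgeR adjusted p = 0.0086), and at 11.0 TPM in TPdh-/- TE and 10.1 TPM in WT TE (log2 -0.04, edgeR adjusted p = 0.83). Of 8 feedback targets of STAT5 and STAT3, 6 were higher in TPdh-/- TE and none lower, against 17.3% and 14.3% of all genes. In TPdh-/- TM 1 of the 8 was higher, against 11.0% of all genes. That gene was Pim1, a survival kinase, at 431 TPM in TPdh-/- TM and 320 TPM in WT TM (log2 0.45, edgeR adjusted p = 2.7e-06), and at 291 TPM in TPdh-/- TE and 170 TPM in WT TE (log2 0.62, edgeR adjusted p = 5.9e-08). Cish, which restrains IL-2 signalling, was at 62.2 TPM in TPdh-/- TE and 29.8 TPM in WT TE (log2 0.97, edgeR adjusted p = 1.3e-06), and Bcl2l1, a survival gene, at 47.7 TPM in TPdh-/- TE and 23.6 TPM in WT TE (log2 0.87, edgeR adjusted p = 2.5e-05). Both had log2 differences near 0 in TM (0.07 and -0.21). The genotype difference of both depended on the culture in the same direction as that of Osm (log2 -0.90 for Cish and -1.08 for Bcl2l1, edgeR adjusted p = 0.00027 and 0.00025). Socs3, a direct STAT3 feedback inhibitor, was higher in TPdh-/- TE at 15.5 TPM, against 10.2 TPM in WT TE (log2 0.48, edgeR adjusted p = 0.00075). The part of LIF or oncostatin M in the levels of these targets was not tested, and the cultures also held IL-2 or IL-15.

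Csf1 and Csf2 moved alike. Csf1 (ENSMUSG00000014599, chromosome 3, 107741048 to 107760469, minus strand) had 0.33, 0.13, 0.19 and 0.16 TPM in TPdh-/- TM, against 0.02, 0.02, 0.02 and 0.09 TPM in WT TM. Behind the WT TM values stood 3 to 16 counts per library, so these levels are near the limit of this depth. The log2 difference was 2.37 (SE 0.46, edgeR adjusted p = 0.000359), and without WT TM library 12, which carried 16 of the 27 counts of its group, it was 3.22. On log2(TPM + 0.1), a scale that understates low genes, it was 1.13 (limma adjusted p = 0.00187). In TE it had 0.68, 0.56, 0.58 and 0.94 TPM in TPdh-/- and 0.24, 0.27, 0.29 and 0.29 TPM in WT (log2 1.41, SE 0.20, edgeR adjusted p = 0.00127). In both cultures no TPdh-/- library overlapped a WT library. The dependence on culture (log2 0.96, edgeR adjusted p = 0.201) passed without library 12 (log2 1.83, edgeR adjusted p = 0.00979). Csf1 was lower in TM than in TE by 1.81 in TPdh-/- cells (edgeR adjusted p = 3.64e-05) and by 2.77 in WT cells (edgeR adjusted p = 5.24e-06) on the log2 scale, and the value in WT cells was -3.63 without library 12.

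Csf2 (ENSMUSG00000018916, chromosome 11, 54247271 to 54249667, minus strand) had 2.02, 1.23, 2.87 and 1.89 TPM in TPdh-/- TM, against 0.51, 0.35, 0.15 and 0.26 TPM in WT TM, where it had 4 to 14 counts per library. The groups did not overlap (log2 2.62, SE 0.37, edgeR adjusted p = 2.08e-05). In TE it had 6.59, 6.03, 7.78 and 8.01 TPM in TPdh-/- and 2.77, 1.62, 2.74 and 2.44 TPM in WT, also without overlap (log2 1.42, SE 0.20, edgeR adjusted p = 0.000229). The larger difference in TM was just outside the threshold (log2 1.21, SE 0.42, edgeR adjusted p = 0.0546), and passed with DESeq2 (adjusted p = 0.0257) and without any one of TPdh-/- TM library 14, WT TM library 9 and WT TE library 2 (adjusted p = 0.0214, 0.024 and 0.031, edgeR). In the culture comparison Csf2 was lower in TM by 1.85 in TPdh-/- cells (edgeR adjusted p = 3.68e-06) and by 3.05 in WT cells (edgeR adjusted p = 1.99e-07) on the log2 scale. Its exons overlap those of the antisense Gm12223, which had 0 counts in every library. Csf1 and Csf2 were 0.38 log2 units apart over these contrasts, the shortest distance between any pair of the 7 tested cytokine genes. The nearest gene to Csf1 was Itga9 (0.22 log2 units) and to Csf2 Nlrp3, the sensor of an inflammasome (0.26 log2 units).

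The receptors of these factors were low. Csf1r, the M-CSF receptor and a macrophage gene, was at 0.43 to 0.62 TPM in TPdh-/- TM and 0.05 to 0.15 TPM in WT TM (log2 3.03, edgeR adjusted p = 4.4e-05). Csf2ra, the GM-CSF binding chain, was at 3.58 TPM in TPdh-/- TM and 1.70 TPM in WT TM (log2 1.11, edgeR adjusted p = 0.001), and at 1.60 TPM in TPdh-/- TE and 1.47 TPM in WT TE (log2 0.14, edgeR adjusted p = 0.67). Csf2rb, the chain shared by the IL-3, IL-5 and GM-CSF receptors, was higher in TPdh-/- in TM (log2 2.03, edgeR adjusted p = 0.00033) and in TE (log2 1.87, edgeR adjusted p = 0.0023), from 307 counts over TPdh-/- TM and 73.8 over WT TM, and 100 over TPdh-/- TE and 26 over WT TE. Of the 21 receptor genes that could be tested, 13 were higher and 1 lower in TPdh-/- TM, against 11.0% and 7.27% of all genes. In TPdh-/- TE 8 were higher and 4 lower, against 17.3% and 14.3% of all genes.

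**Figure D5:**
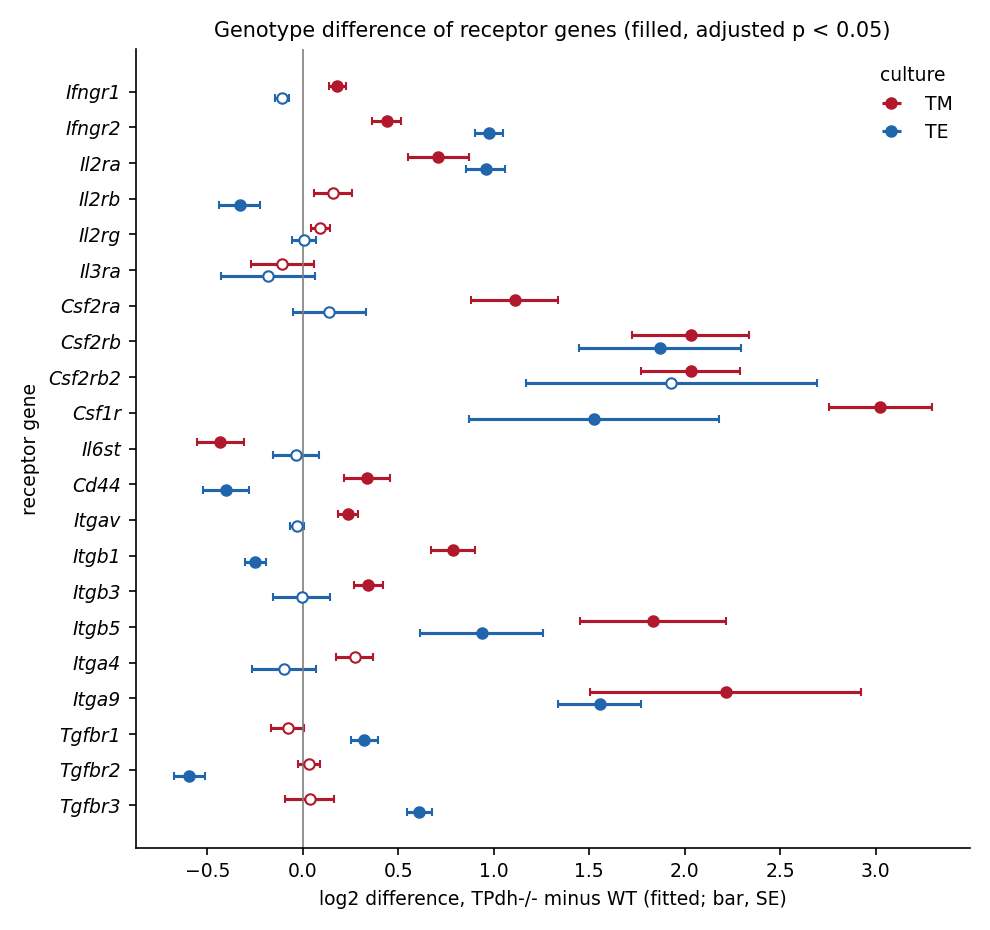
Fitted log2 difference TPdh-/- minus WT (x axis) of 21 receptor genes of the cytokines (y axis) in TM and TE; bars are SE and filled points passed an adjusted p of 0.05. Csf1r has the largest difference in TM (3.03), and Itgb1 and Cd44 are filled to the right of 0 in TM and to the left in TE.

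Spp1 (ENSMUSG00000029304, chromosome 5, 104435118 to 104441050, plus strand) had the largest genotype difference of the cytokine genes in TM. It had 33.1, 28.1, 31.6 and 48.5 TPM in TPdh-/- TM, against 1.10, 1.31, 1.66 and 2.27 TPM in WT TM, a fold of 23.1 (log2 4.53, SE 0.27, edgeR adjusted p = 3.82e-09). In TE it had 26.8, 26.0, 26.9 and 44.1 TPM in TPdh-/- and 11.8, 10.7, 12.3 and 13.3 TPM in WT (log2 1.22, SE 0.19, edgeR adjusted p = 0.000128). In both cultures every TPdh-/- library lay above every WT library, and the difference was larger in TM by 3.31 on the log2 scale (SE 0.33, edgeR adjusted p = 1.97e-06). In WT cells it was lower in TM than in TE by 3.13 (edgeR adjusted p = 3.59e-09), where 34.3% of genes were higher and 34.3% lower, and in TPdh-/- cells the 0.19 did not pass (edgeR adjusted p = 0.385). That last value was -0.02 without TPdh-/- TM library 16 and 0.41 without TPdh-/- TE library 8 (edgeR adjusted p = 0.906 and 0.0417). Gm42793, which shares exon positions on the same strand, had 0 to 4 counts per library. Spp1 is also a macrophage gene, and the myeloid marker Lyz2 was at 24.1 TPM in TPdh-/- TM and 2.73 TPM in WT TM in the same libraries. The part of such cells was not tested.

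Among the osteopontin receptors, Itgb1 (integrin beta 1) was at 226 TPM in TPdh-/- TM and 135 TPM in WT TM (log2 0.79, edgeR adjusted p = 4.3e-06), and at 211 TPM in TPdh-/- TE and 227 TPM in WT TE (log2 -0.25, edgeR adjusted p = 0.031). Cd44 turned likewise, with 0.34 in TM and -0.40 in TE on the log2 scale (edgeR adjusted p = 0.037 and 0.0083). The dependence on culture passed for both (Itgb1 log2 1.04, Cd44 log2 0.74, edgeR adjusted p = 1.7e-05 and 0.003). Itgav and Itgb3, which pair to bind osteopontin, were higher in TPdh-/- TM by 0.24 and 0.34 (edgeR adjusted p = 0.0032 and 0.032) and at -0.03 and -0.01 in TE. Itga9 and Itgb5, whose integrins also bind osteopontin, were low but higher in TPdh-/- in both cultures, by 2.21 and 1.83 in TM (edgeR adjusted p = 0.0074 and 0.0061) and by 1.56 and 0.94 in TE (edgeR adjusted p = 0.0041 and 0.013) on the log2 scale. Itga4 passed in neither culture. Pkd2, the next gene downstream at 18400 bases from Spp1, was at 0.27 to 0.33 TPM in TPdh-/- TM and 0.04 to 0.06 TPM in WT TM (log2 2.79, edgeR adjusted p = 8.2e-08), and in TE the log2 difference was 0.76 (edgeR adjusted p = 0.002). The bone matrix genes Mepe, Ibsp and Dmp1, which lie on the other side of Spp1 and belong to the same family, had means of at most 0.0075 TPM in any group. The genes most like Spp1 were Cd163l1, Serpina3f and Cdk14 (0.66, 1.41 and 1.47 log2 units), of which Cd163l1 encodes a scavenger receptor typical of gamma-delta T lineages.

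Tgfb1 (ENSMUSG00000002603, chromosome 7, 25687002 to 25705077, plus strand) was among the highest of the 10 and passed in no genotype comparison. It had 30.9, 24.1, 19.8 and 22.3 TPM in TPdh-/- TM and 26.5, 26.1, 22.1 and 39.1 TPM in WT TM (log2 -0.28, SE 0.21, edgeR adjusted p = 0.187), and without WT TM library 12, its highest, the difference was -0.031 (edgeR adjusted p = 0.839). In TE it had 37.8, 35.9, 33.1 and 38.8 TPM in TPdh-/- and 30.4, 33.8, 29.2 and 39.8 TPM in WT (log2 0.05, SE 0.06, edgeR adjusted p = 0.828). It was lower in TM than in TE by 0.84 in TPdh-/- cells (edgeR adjusted p = 4.93e-05) and by 0.51 in WT cells (edgeR adjusted p = 0.00361) on the log2 scale. On log2 TPM the value in WT was -0.25 and did not pass (limma adjusted p = 0.168).

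Of 13 genes that release or activate these mediators 9 could be tested. In TPdh-/- TM 2 were higher and 1 lower, against 11.0% and 7.27% of all genes. In TPdh-/- TE 3 were higher and 1 lower, against 17.3% and 14.3% of all genes. Furin, Nrros and Ltbp4, which process or bind latent TGF beta, passed in neither culture. Among the receptors, Tgfbr2, the ligand-binding receptor, was at 28.2 TPM in TPdh-/- TE and 38.2 TPM in WT TE (log2 -0.60, edgeR adjusted p = 5.0e-06), while Tgfbr1 and Tgfbr3 were higher in TPdh-/- TE (log2 0.32 and 0.61, edgeR adjusted p = 0.0032 and 0.00013). None of these 3 passed in TM. Lrrc32, which tethers latent TGF beta to the cell surface, was at 0.74 TPM in TPdh-/- TM and 2.29 TPM in WT TM (log2 -1.66, edgeR adjusted p = 0.006). In TE it was at 11.3 TPM in TPdh-/- and 7.13 TPM in WT (log2 0.62, edgeR adjusted p = 0.16). Its genotype difference depended on the culture (log2 -2.28, edgeR adjusted p = 0.0051). Ltbp3, which also binds the latent form, had 89 counts over TPdh-/- TM and 13 over WT TM (log2 2.73, edgeR adjusted p = 0.0002), and in TE its log2 difference was -0.04 (edgeR adjusted p = 0.93). Thbs1, which activates the latent form, was higher in TPdh-/- TM (0.84 TPM, against 0.22 TPM in WT TM, log2 2.03, edgeR adjusted p = 0.0012) and TPdh-/- TE (log2 1.79, edgeR adjusted p = 0.0081). Mmp9, a protease that also cleaves osteopontin, had 419 counts over the TPdh-/- TE libraries and 16 over the WT TE libraries (log2 4.59, edgeR adjusted p = 1.7e-06). The protease that sheds membrane-bound amphiregulin, Adam17, was at 27.5 TPM in TPdh-/- TM and 30.2 TPM in WT TM and fell by 0.17 on the log2 scale in TPdh-/- TE (edgeR adjusted p = 0.0052).

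The remaining members were at or near 0. Il3 (chromosome 11, 15636 bases from Csf2) had 0 counts in all 16 libraries, which allows up to 0.00306 CPM at 3 counts over all of them. Its neighbour Csf2 was measured in each library, and Il3ra, the IL-3 binding chain, was at 2.02 TPM in TPdh-/- TM and 2.37 TPM in WT TM. Il2 had 17.9 counts in 10 of the 16 libraries: 2.89 over TPdh-/- TM and 2 over WT TM, and 4 over TPdh-/- TE and 9 over WT TE. Exact 2-sided permutation tests of its CPM gave p = 0.4 in TM and p = 0.314 in TE for the genotypes (4 against 4 libraries, smallest possible p 0.0286), so no difference was detectable at this depth. Areg had 0 counts over TPdh-/- TM and 1 over WT TM, and 3 over TPdh-/- TE and 1 over WT TE, and Egfr averaged at most 0.0025 TPM in any group. The IL-2 receptor was abundant. Il2ra, its high-affinity chain, was at 53.6 TPM in TPdh-/- TM and 33.3 TPM in WT TM (log2 0.71, edgeR adjusted p = 0.00037), and at 201 TPM in TPdh-/- TE and 94.8 TPM in WT TE (log2 0.96, edgeR adjusted p = 9.4e-06). Il2rb was lower in TPdh-/- TE (log2 -0.33, edgeR adjusted p = 0.012), and Il2rg passed in neither culture.

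Between cultures, TM against TE, 1 of the 7 tested genes was higher (Osm) and 5 were lower in WT cells. In TPdh-/- cells 1 of the 7 was higher (Ifng) and 4 were lower. Beside the backgrounds of 34.3% lower in WT and 34.7% lower in TPdh-/-, a count of 7 genes does not set them apart. The genotype difference depended on the culture for 3 of the 7 tested genes (Lif, Osm and Spp1), where 15.6% of all genes tested did. Of 27 genes listed as near the cytokine genes on their chromosomes 16 could be tested. In TPdh-/- TM 3 were higher and 2 lower, against 11.0% and 7.27% of all genes. Abcg2, 1 of these 3, lies on chromosome 6, which holds none of the 10 cytokine genes, so it is not a neighbour. It passed in TM (log2 0.91, edgeR adjusted p = 2.9e-05) and not in TE (log2 0.12, edgeR adjusted p = 0.45). In TPdh-/- TE 4 were higher and 2 lower, against 17.3% and 14.3% of all genes.

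Of 29 tested transcription factors of cytokine genes, 4 were higher and 8 lower in TPdh-/- TM, against 11.0% and 7.27% of all genes. In TPdh-/- TE 2 were higher and 14 lower, against 17.3% and 14.3% of all genes. Maf, which drives Il4 and Il10, was higher in both cultures, at 0.81 TPM in TPdh-/- TM and 0.10 TPM in WT TM (log2 2.83, edgeR adjusted p = 4.4e-07), and at 8.82 TPM in TPdh-/- TE and 2.78 TPM in WT TE (log2 1.45, edgeR adjusted p = 5.4e-06). Prdm1, which encodes Blimp-1, was higher in TPdh-/- TM (log2 1.62, edgeR adjusted p = 5.8e-05) and lower in TPdh-/- TE (log2 -0.88, edgeR adjusted p = 0.0021). Bhlhe40, a factor that favours Csf2 and Ifng in T cells, moved in the same directions (log2 0.57 in TM and -0.25 in TE, edgeR adjusted p = 6.8e-05 and 0.019). The AP-1 genes Fos (log2 -1.05), Fosb (-1.44), Junb (-1.15) and Jund (-0.65) were lower in TPdh-/- TM and did not pass in TE, while Jun (-0.05), Fosl2 (-0.04) and Batf (-0.01) did not pass in TM (edgeR adjusted p = 0.77, 0.79 and 0.93). Egr1, an immediate early gene of receptor signalling, was lower in both (log2 -0.96 in TM and -0.83 in TE, edgeR adjusted p = 0.00017 and 0.00034). In TPdh-/- TE the lymphoid factors Ikzf3 and Ikzf1 were lower (log2 -0.66 and -0.32, edgeR adjusted p = 6.5e-06 and 5.9e-05), as was Eomes, a relative of T-bet (log2 -0.67, edgeR adjusted p = 0.00082). Tbx21, which encodes T-bet, passed only in TE, at 15.7 TPM in TPdh-/- TE and 17.5 TPM in WT TE (log2 -0.30, edgeR adjusted p = 0.033). Of 12 genes for proteins that destabilise or silence cytokine mRNA, 2 were lower in TPdh-/- TM and none higher. The shares of all genes there were 7.27% and 11.0%. In TPdh-/- TE 2 were lower and 1 higher, against 14.3% and 17.3% of all genes. Zfp36 was at 24.3 TPM in TPdh-/- TM and 40.9 TPM in WT TM (log2 -0.70, edgeR adjusted p = 0.00091), Khsrp also was lower in TM, and Zfp36l1 and Zfp36l2 were lower in TPdh-/- TE (log2 -0.31 and -0.47, edgeR adjusted p = 0.0012 and 0.00037).

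Several of the cytokine genes are also expressed by other leukocytes, and markers of some of these moved with genotype in both cultures. Of 5 B cell markers and of 5 mast cell and basophil markers, 1 each was higher in TPdh-/- TM and none lower. The shares of all genes there were 11.0% and 7.27%. None of the 4 neutrophil markers passed in TM. No marker of these lists passed in TE, where 17.3% of all genes were higher and 14.3% lower. All 9 NK cell markers had a higher mean in TPdh-/- TM and 8 passed the test, with sums of 233 to 371 TPM in TPdh-/- TM and 56.5 to 76.2 TPM in WT TM. In TE the sums were 130 to 193 TPM in TPdh-/- and 254 to 282 TPM in WT, with 6 markers higher and 2 lower by the test. Klrk1 was the largest part of both TE sums, at 78.8 TPM in TPdh-/- TE and 196 TPM in WT TE. Eomes was also lower there (30.1 TPM in TPdh-/- TE and 43.5 TPM in WT TE), so the sums do not follow the 6 higher markers. The 6 macrophage and monocyte markers summed to 18.5 to 30.5 TPM in TPdh-/- TM and 2.41 to 3.32 TPM in WT TM, and to 3.18 to 7.82 TPM in TPdh-/- TE and 0.92 to 2.37 TPM in WT TE. Lyz2 made up most of that sum, at 24.1 TPM in TPdh-/- TM and 2.73 TPM in WT TM, while Csf1r, Adgre1, Cd14, Fcgr1 and Mrc1 reached at most 0.62, 0.68, 0.32, 0.14 and 0.10 TPM in any library. Dendritic cell markers summed to 7.29 to 15.1 TPM in TPdh-/- TM and 1.01 to 1.72 TPM in WT TM, led by Itgax. The sums went the other way in TE, at 1.82 to 4.57 TPM in TPdh-/- and 5.2 to 6.57 TPM in WT. There 1 of these markers was higher and 1 lower by the test. Flt3 and Siglech were under 0.1 TPM in every library. Gamma-delta T cell markers summed to 78.7 to 85.9 TPM in TPdh-/- TM and 44.5 to 51.0 TPM in WT TM, mostly Trdc, and to 49.3 to 52.6 TPM in TPdh-/- TE and 30.1 to 35.4 TPM in WT TE, and all 3 that were measured were higher in both cultures by the test. The 2 regulatory T cell markers went opposite ways in TE, 1 higher and 1 lower in TPdh-/- by the test. Foxp3, the defining factor of these cells, was at 1.66 to 8.10 TPM in TPdh-/- TE and 0.29 to 0.47 TPM in WT TE. Ikzf2 averaged 4.93 TPM in TPdh-/- TE and 6.24 TPM in WT TE. The part of these cells in the cytokine levels of either culture was not tested.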

How the data were processed

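Poly(A) libraries were made with a kit that does not keep the strand. The processing notes of the submitters name STAR 2.7.6a, RSEM 1.3.3, DESeq2 (no version) and the mm10 build, and the annotation release was not given in the sources used here. Expected counts as deposited are RSEM estimates and can be fractional, and the authors scaled TPM for length and library total. RSEM divides reads between genes with shared exons. The length that RSEM weighted over isoforms was also deposited by the authors and enters TPM.

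GENCODE M21 gave names and GRCm38 positions (55141 of 55401 identifiers matched). Expected counts were rounded, and filterByExpr with a minimum count of 10 and a minimum total of 15 kept 15277 genes. In edgeR 4.0.16 (R 4.3.3) with TMM factors, all 16 libraries entered a single quasi-likelihood fit of the 4 group means, which gave 5 contrasts: genotype in TM and in TE, TM against TE in WT and in TPdh-/-, and the genotype difference in TM minus that in TE, with Benjamini-Hochberg adjustment over all genes tested. The SE is that of the difference in mean log2 CPM (prior count 2) between libraries. Genes under the filter were compared by exact 2-sided permutation tests, and floors, which cover counting error only, use 3 counts. Likeness of pattern was the Euclidean distance over 3 fitted log2 differences (genotype in TM, genotype in TE, culture in WT) among genes with a mean of at least 1 CPM in a group, and the 3 nearest genes are named. An item of the lists is not reported here. For each of 8 gene lists the counts called between genotypes are given, and the rule let up to 5 genes with the smallest adjusted p in each genotype contrast and any receptor be named. Not all of these are named, and other genes of the lists were chosen after their values were seen. The 10 genes, the lists and the 10 marker lists were chosen with earlier results of these data known. Alternatives were DESeq2 1.42.0, limma 3.58.1 on log2 CPM and on log2(TPM + 0.1), RLE and upper-quartile factors, no filter, at least 1 CPM in 4 libraries, the 2 groups of a contrast alone, and leaving out libraries. Promoters of 9 of the 10 genes were read from RefSeq (GRCm38.p6).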

Additional observations from a re-analysis of the deposited data

Results flagged for a closer look

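Among 28 sets of 4 libraries (the 7 tested cytokine genes in 4 groups), 4 held a library far from the other 3, where chance gives about 1 in 20. Csf1 in WT TM library 12 was at 0.267 CPM, the highest of its group. Tgfb1 was also highest in that library, at 41.3 CPM. Spp1 was far above the rest of its group in TPdh-/- TM library 16 (47.8 CPM) and in TPdh-/- TE library 8 (42.1 CPM).

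For 3 genes the genotype difference (TPdh-/- minus WT) was not the same in TM and TE by the test of that difference. The difference in TM minus that in TE was 3.31 on the log2 scale for Spp1 (edgeR adjusted p = 1.97e-06), -1.60 for Osm (edgeR adjusted p = 4.56e-06) and -1.54 for Lif (edgeR adjusted p = 0.0244).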

How the results depend on the processing

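The counts of cytokine genes called in each of the 5 contrasts moved by no more than 1.5 times under any alternative run. Direction turned in 4 values, none of which passed a test in the fit of all libraries or with the direction turned: Spp1 between cultures in TPdh-/- was -0.024 without TPdh-/- TM library 16 (range 0.41 down to that value over single libraries left out), Osm between cultures in TPdh-/- was 0.11 without TPdh-/- TE library 5 (range -0.15 to 0.11) and 0.11 without both that library and WT TM library 12, and Tgfb1 between genotypes in TE was -0.0085 without WT TE library 1 (range -0.0085 to 0.076). A further 11 values passed the threshold under an alternative and 5 no longer did, all printed with their results except that, without libraries 5 and 12 together, the dependence on culture of Csf1 was 1.82 (adjusted p = 0.0144) and that of Ifng 0.86 (adjusted p = 0.0379). The remaining 848 values for single genes kept their direction and side of the threshold. Among these, the log2(TPM + 0.1) scale moved Csf1 between cultures in WT to -1.47, its dependence on culture to 0.064 and that of Csf2 to 0.80, and the last 2 passed on neither scale. The cause was not tested. Over all genes, the TPM scale called 1776 genes between genotypes in TM, where the counts called 2796. The TPM scale also shifted the median of all genes by 0.14 (genotype in TE), 0.18 (culture in WT) and -0.17 (dependence on culture) on the log2 scale, and higher calls were 84.8%, 65.5% and 18.6% of those contrasts' calls, against 54.8%, 50.03% and 51.7% on counts. All signs of the cytokine genes matched between mean TPM and mean CPM. Depth limits Csf1 and Csf2 in WT TM, and Il2, Il3 and Areg throughout. No paired analysis was possible because no 2 groups share a library number.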

Other observations

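Of 34 other secreted cytokines and growth factors, 15 had enough counts to be tested. In TPdh-/- TM 4 were higher and none lower, against 11.0% and 7.27% of all genes. In TPdh-/- TE 3 were higher and 4 lower, against 17.3% and 14.3% of all genes. Fgl2, which encodes a secreted immunoregulatory protein, was at 51.3 TPM in TPdh-/- TM and 9.99 TPM in WT TM (log2 2.41, edgeR adjusted p = 4.3e-06), and at 109 TPM in TPdh-/- TE and 113 TPM in WT TE (log2 -0.20, edgeR adjusted p = 0.57). Il15, which is also the cytokine of the TM cultures, was at 0.58 TPM in TPdh-/- TM and 0.16 TPM in WT TM (log2 2.07, edgeR adjusted p = 0.0014), and its log2 difference in TE was 0.87 (edgeR adjusted p = 0.089). Ebi3, a subunit shared by IL-27 and IL-35, was at 1.32 TPM in TPdh-/- TM and 0.55 TPM in WT TM (log2 1.3, edgeR adjusted p = 0.0029). Hbegf, a ligand of the EGF receptor like Areg, was higher in TPdh-/- in both cultures (log2 2.01 in TM and 1.12 in TE, edgeR adjusted p = 0.025 and 0.026). Flt3l, a growth factor of dendritic cells, was at 64.8 TPM in TPdh-/- TE and 43.7 TPM in WT TE (log2 0.34, edgeR adjusted p = 0.0008). Tgfb3 and Tgfa were lower in TPdh-/- TE (log2 -0.91 and -1.58, edgeR adjusted p = 0.016 and 0.0015). Il10 was at 0.54 TPM in TPdh-/- TE and 0.49 TPM in WT TE (log2 0.01, edgeR adjusted p = 0.98).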
